A study of Mus musculus with 28 samples.

Results

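The Toll-like receptors (TLRs) of mouse peritoneal macrophages were followed across 7 groups of arrays. The family was taken as 10 listed genes, each represented by the probe set that carried its symbol alone and, among several, had the highest mean signal. A probe set was found for 9 of the 10 genes (Tlr1, Tlr2, Tlr3, Tlr4, Tlr6, Tlr7, Tlr8, Tlr9 and Tlr13), 1 for each, and all 9 passed the filter on low signal. They stand among 13512 genes tested, from a table of 35556 probe sets. Tlr5, the receptor for bacterial flagellin, had no probe set with its symbol in the table of probe sets and genes and was not analysed here.

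The macrophages were resident cells washed from the peritoneal cavity without a thioglycollate injection and kept overnight in serum-free medium, with non-adherent cells washed away. Each group held 4 independent samples, all on a C57BL/6 background. The wild-type and ATF7 knockout groups were not injected, and the age of those mice is not given in the sources used here. The other groups were wild-type mice injected intravenously at 7 to 8 weeks of age with PBS, LPS (from E. coli O111:B4), PGN, imiquimod (IMQ) or β-glucan (BG). Their macrophages were labelled as taken 3 weeks later (3 to 4 weeks in the protocol), at 10 to 12 weeks of age. ATF7 is a transcription factor of the ATF/CREB family that responds to stress. The knockout was compared with wild type, each ligand with PBS, the ligands with each other, and PBS with uninjected wild type.

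TLRs are membrane receptors that recognise conserved molecules of microbes and pass the signal through adaptor proteins to NF-κB and interferon regulatory factors. TLR1, TLR2, TLR4, TLR5 and TLR6 sit at the cell surface and bind lipopeptides, LPS or flagellin, whereas TLR3, TLR7, TLR8, TLR9 and TLR13 sit in endosomes and bind nucleic acids. Macrophages use both sets, and the injected agents include ligands of TLR4 (LPS) and TLR7 (imiquimod) and, for β-glucan, of the C-type lectin dectin-1, which Clec7a encodes.

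Levels are log2 signal of an Affymetrix array, and a difference of 1 on this scale is a doubling of signal. Median signal per array was 107 to 115 in linear units, arrays within a group correlated at 0.985 to 0.996, and the background floor was 6.32 (log2). The only measure of precision is the spread of arrays within groups of 4. Except in fits on the compared groups alone, intervals and p-values use 1 spread per gene, pooled over all 7 groups. It is drawn toward the spread of other genes. Atf7 itself lay at 6.94 to 7.19 in the knockout and at 9.85 to 10.09 in wild type by one of its probe sets, and at 10.25 to 10.34 against 10.64 to 10.80 by the other. The macrophage genes Adgre1 (12.15 to 12.45) and Gata6 (8.74 to 10.81) were above the floor on all 28 arrays. So were the B cell genes Cd79a (8.22 to 10.50) and Cd79b (9.11 to 11.00). Cd3d, Ncr1, Cpa3, Epx and Ly6g, markers of T cells, NK cells, mast cells, eosinophils and neutrophils, were at background on all 28. Other markers of the same cells, in that order, were above the floor: Cd3e on 27 arrays, Prf1, Hdc and Siglecf on 28 each and Camp on 26. A marker at background therefore does not show that its cell type was absent. In bulk samples such as these, fewer cells of a type and less RNA per cell cannot be told apart.

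All 9 receptors lay above the floor on 28 of 28 arrays. Tlr12, another endosomal receptor of the mouse, lay at 5.49 to 6.22 and was above the floor on 0 arrays. The span between the lowest and the highest group mean was 0.92 for Tlr1, 0.76 for Tlr8, 0.64 for Tlr3, 0.51 for Tlr13, 0.50 for Tlr7, 0.46 for Tlr9, 0.45 for Tlr4, 0.30 for Tlr2 and 0.29 for Tlr6. The pooled SD within groups ran from 0.0795 (Tlr7) to 0.213 (Tlr13).

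**Figure D1:**
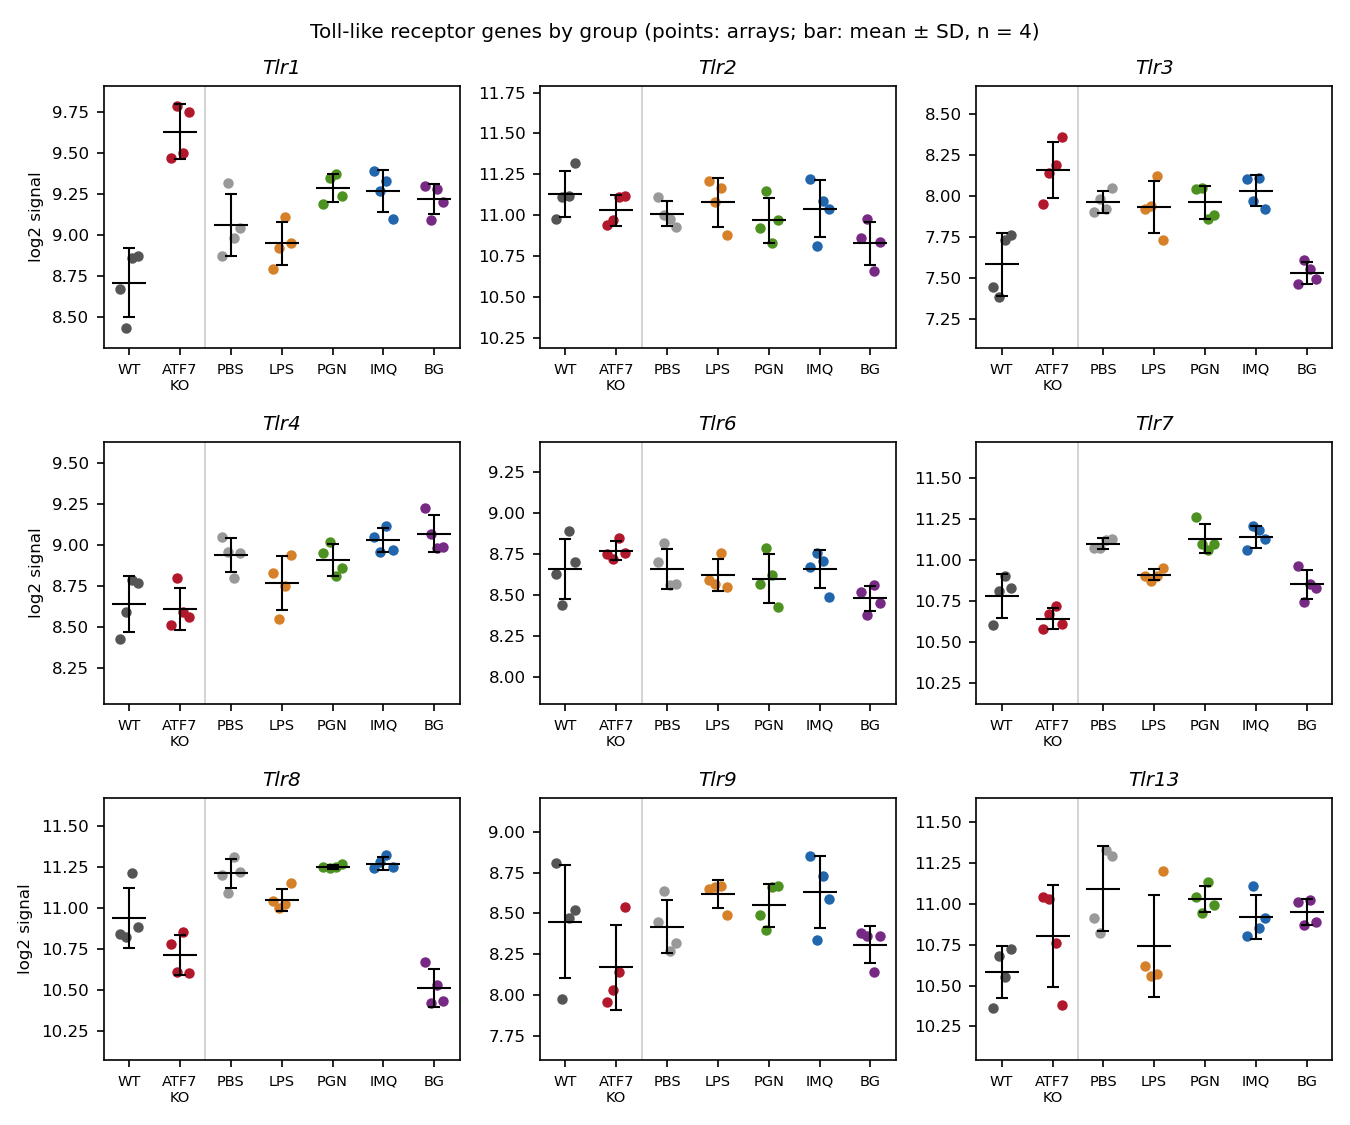
Log2 signal of the 9 receptors in the 7 groups, with each array as a point and the mean ± SD of 4 arrays as bars. Tlr1 was highest in the knockout (9.47 to 9.79), and Tlr8 was lowest after β-glucan (10.42 to 10.67).

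Group means of Tlr1, which pairs with TLR2 to bind triacylated lipopeptides, ran from wild type (8.71) through LPS (8.95), PBS (9.06), BG (9.22), IMQ (9.27) and PGN (9.29) to the knockout (9.63). Those of Tlr3, the receptor for double-stranded RNA, ran from BG (7.53) through wild type (7.58), LPS (7.93), PBS and PGN (7.96 each) and IMQ (8.03) to the knockout (8.16). For both genes the knockout was the highest group, but they differed in where β-glucan lay. Group means of Tlr7 and Tlr8, receptors of the single-stranded RNA group that lie side by side on the X chromosome, both ended at IMQ (11.14 and 11.27) after PGN (11.13 and 11.25) and PBS (11.10 and 11.21). The lowest was the knockout for Tlr7 (10.64) and β-glucan for Tlr8 (10.51). Tlr4, the LPS receptor, ran from the knockout (8.61) and wild type (8.64) through LPS (8.77), PGN (8.91), PBS (8.94) and IMQ (9.03) to BG (9.07). Tlr13, which recognises bacterial ribosomal RNA, ran from wild type (10.58) through LPS (10.74), the knockout (10.80), IMQ (10.92), BG (10.95) and PGN (11.03) to PBS (11.09). Between neighbours in these orders the arrays failed to overlap only for Tlr1 between PGN and the knockout (a gap of 0.34 between means) and for Tlr7 between LPS and PBS (a gap of 0.19). In all other neighbouring pairs of the 9 genes the arrays overlapped.

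Sequences before RefSeq starts of Tlr1, Tlr3 and Tlr8 are shown because these genes moved most between groups. Each is the 250 bases before a start on GRCm38.p6, on the minus strand, read 5′ to 3′. A match to the interferon-gamma activated site (GAS, TTCNNNGAA) is in capitals. Tlr1 has a first window, chr5:64933559-64933808, and a second, chr5:64932700-64932949. The Tlr3 window is chr8:45410381-45410630 and the Tlr8 window is chrX:167264330-167264579. Not all lie outside the gene spans given below. The Tlr3 window and the second Tlr1 window lie inside the spans of their genes. The first Tlr1 window overlaps the end of its span, and the Tlr8 window begins just past its span.
Tlr1, first: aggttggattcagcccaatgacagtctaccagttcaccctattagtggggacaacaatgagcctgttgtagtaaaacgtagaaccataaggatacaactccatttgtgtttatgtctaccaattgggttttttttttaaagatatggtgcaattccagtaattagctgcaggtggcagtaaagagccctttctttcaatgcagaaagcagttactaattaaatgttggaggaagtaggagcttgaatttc
Tlr1, second: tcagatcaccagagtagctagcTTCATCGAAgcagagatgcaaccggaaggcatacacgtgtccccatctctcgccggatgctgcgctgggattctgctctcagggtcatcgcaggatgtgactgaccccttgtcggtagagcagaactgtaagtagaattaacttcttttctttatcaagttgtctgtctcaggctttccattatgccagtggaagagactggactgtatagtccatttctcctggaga
Tlr3: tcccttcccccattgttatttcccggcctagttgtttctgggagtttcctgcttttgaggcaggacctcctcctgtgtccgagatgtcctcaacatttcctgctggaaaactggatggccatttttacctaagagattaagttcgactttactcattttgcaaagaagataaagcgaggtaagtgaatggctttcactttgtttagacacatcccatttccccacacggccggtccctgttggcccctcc
Tlr8: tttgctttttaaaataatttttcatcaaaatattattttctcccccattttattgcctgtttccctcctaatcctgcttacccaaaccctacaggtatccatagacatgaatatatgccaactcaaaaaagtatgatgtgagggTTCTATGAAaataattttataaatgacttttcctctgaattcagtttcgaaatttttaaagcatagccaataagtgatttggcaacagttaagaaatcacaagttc
The set of windows used here held 8 of the 10 listed genes, 10 windows in all. Tlr4 and Tlr7 had no entry in that set. The full cyclic AMP response element TGACGTCA, the site of the ATF/CREB family, was searched on both strands. It was in 0 of the 10 windows and in 1.55% of the 32851 windows of the same length in the set. Its half-site TGACG, which the full element contains, was in 2 (Tlr6 and Tlr13) against 17.8% of all windows. The GAS letters were in 2 (Tlr1 and Tlr8) against 7.02%, and the interferon-stimulated response element was in 1 (Tlr6) against 2.98%. The Tlr6 windows also lie inside the span of their gene, and the windows of Tlr2 and Tlr5 overlap theirs. These matches describe letters in the windows and nothing about binding.

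Loss of ATF7 in uninjected mice was accompanied by higher signal of Tlr1 and Tlr3 and lower signal of Tlr8, while the other 6 receptors did not pass the test. That is 2 of 9 higher and 1 of 9 lower, beside 17.7% higher and 10.7% lower among all genes tested. The median difference was -0.03 for the receptors and 0.01 for all genes. Called genes were 62.3% higher, a share that became 78.1% with each array centred on its median.

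Tlr1 (probe set 10530145, chr5:64924680-64933600) measured 9.47, 9.79, 9.50 and 9.75 in the 4 knockout arrays and 8.67, 8.43, 8.86 and 8.87 in the wild-type arrays. All knockout arrays lay above all wild-type arrays. The difference was 0.92 (95% interval 0.72 to 1.12), or 1.89-fold higher (limma adjusted p = 1.03e-07). It was 1.26 (adjusted p = 9e-06) with B cell marker signal as a covariate and 0.66 (adjusted p = 0.00319) with the interferon-response genes as a covariate. Tlr3 (probe set 10578493, chr8:45395665-45411075) measured 7.95, 8.14, 8.19 and 8.36 in the knockout and 7.44, 7.38, 7.73 and 7.76 in wild type. Here too the groups did not overlap, and the difference was 0.58 (0.41 to 0.76), 1.5-fold higher (adjusted p = 1.26e-05). The difference in Tlr3 was 0.22 and no longer passed (adjusted p = 0.216) with the interferon-response genes as a covariate. Among all genes tested, calls in the knockout fell from 3830 to 1203 with that covariate. A call lost with it therefore does not by itself set a gene apart.

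Tlr8 (probe set 10607868, chrX:167241123-167264329) measured 10.78, 10.61, 10.85 and 10.60 in the knockout and 10.84, 10.82, 11.21 and 10.88 in wild type. The groups overlapped, and wild-type array 3 stood above the rest. The difference was -0.23 (-0.37 to -0.09), 1.17-fold lower (limma adjusted p = 0.0135). This call rested on single arrays: it was lost without wild-type array 3 (-0.14, adjusted p = 0.0855), knockout array 2 (adjusted p = 0.0593) or knockout array 4 (adjusted p = 0.0529). It was also lost with arrays centred on their median (-0.17, adjusted p = 0.0637), on these groups alone (adjusted p = 0.0948) and with the B cell (-0.30, adjusted p = 0.119) or interferon (-0.03, adjusted p = 0.923) covariate.

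The remaining surface receptors showed differences of -0.10 for Tlr2, which senses lipopeptides (adjusted p = 0.443), -0.03 for Tlr4 (0.837) and 0.11 for Tlr6, the partner of TLR2 for diacylated lipopeptides (0.362). Tlr6 (chr5:64953092-64970942) lies next to Tlr1. In the endosomal set the differences were -0.14 for Tlr7 (adjusted p = 0.0563), -0.28 for Tlr9, the receptor for CpG DNA (0.119), and 0.22 for Tlr13 (0.234). Some of these passed when an array was left out: Tlr7 passed without wild-type array 1 (-0.20, adjusted p = 0.00435) or knockout array 3 (-0.17, 0.0369), Tlr9 without wild-type array 2 (-0.43, 0.0091) or knockout array 4 (-0.40, 0.0208), and Tlr13 without knockout array 4 (0.36, 0.0341). With the interferon covariate Tlr2 (-0.46, adjusted p = 0.00379), Tlr9 (-0.64, 0.0311) and Tlr13 (0.73, 0.00671) passed, and Tlr7 passed with a second quantile normalisation (-0.16, 0.0169).

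Lists of B cell, interferon-response and large peritoneal macrophage genes moved in the same comparison. Of 17 B cell genes tested, 14 were lower and 0 higher in the knockout, and their mean signal was 7.38 to 7.87 over the knockout arrays against 7.97 to 8.63 in wild type. Of 27 genes of the type I interferon response, 26 were higher, with a mean of 9.42 to 10.38 against 8.53 to 9.05. Of 21 genes of large peritoneal macrophages, 9 were lower and 4 higher, with a mean of 10.80 to 11.00 against 11.08 to 11.30. Their part in the receptor differences was not tested beyond the covariates given. Neither the B cell mean nor the interferon mean overlapped between these groups. Values with these covariates therefore extend a slope beyond levels that the groups share.

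**Figure D2:**
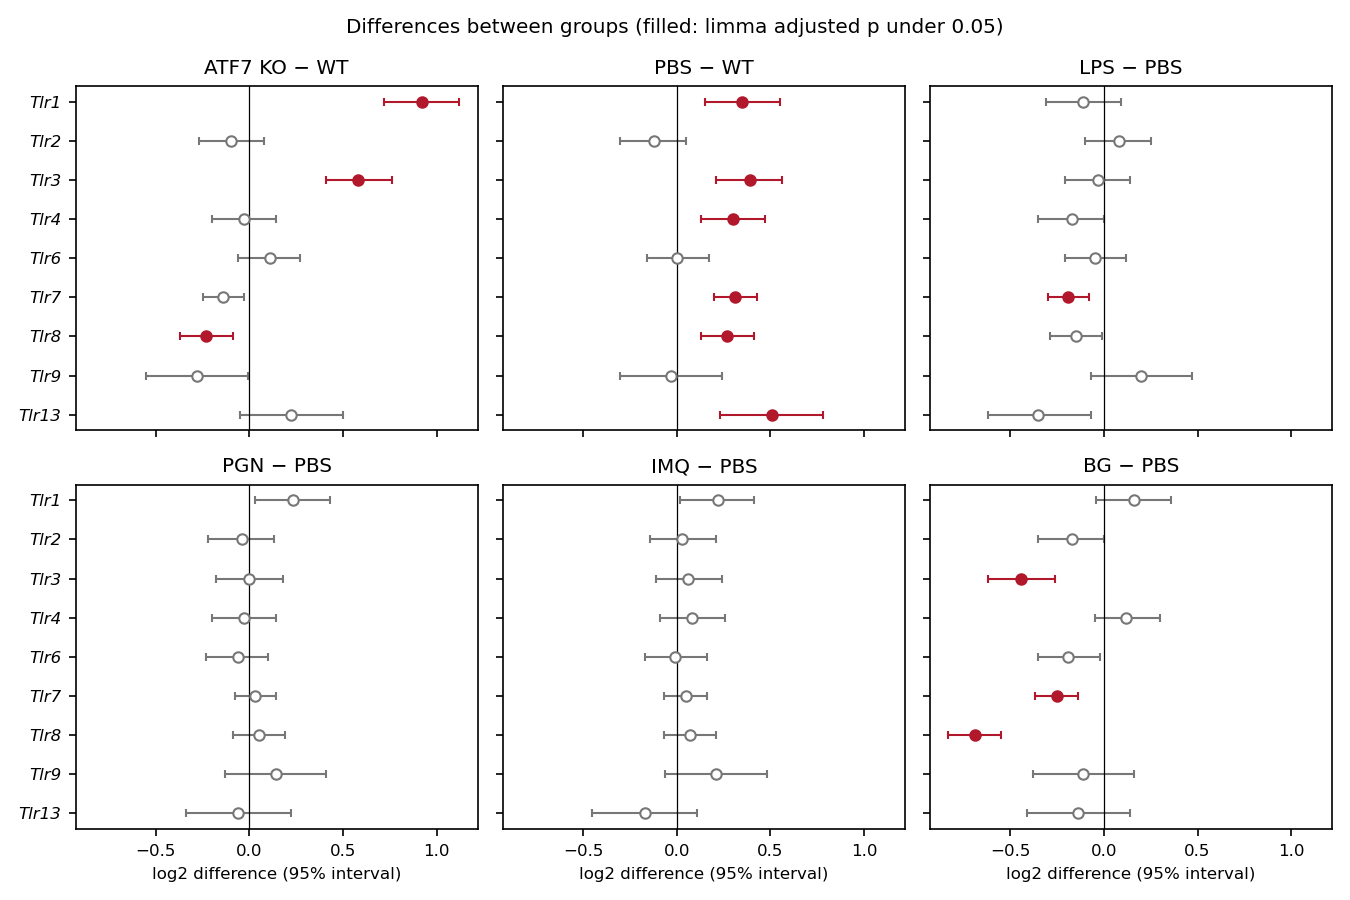
Log2 difference of each receptor in the 6 comparisons, with its 95% interval; filled points passed a limma adjusted p under 0.05. Tlr1 (0.92) and Tlr3 (0.58) were higher in the knockout, 6 receptors were higher in PBS-injected than in uninjected mice, and Tlr8 (-0.69), Tlr3 (-0.44) and Tlr7 (-0.25) were lower after β-glucan.

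PBS-injected mice, the control for the ligands, also differed from uninjected wild-type mice. Of the 9 receptors, 6 were higher and 0 lower, beside 19.7% higher and 12.9% lower among all genes, and the median difference was 0.30 for the receptors and 0.02 for all genes. Called genes were 60.4% higher, or 80.5% with arrays centred on their median. The knockout and PBS comparisons share the wild-type arrays, so their values are not independent. The injection, the age of the mice, their handling and the array run cannot be told apart here.

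Tlr13 (probe set 10601385, chrX:106143275-106160493) measured 10.91, 10.82, 11.33 and 11.29 after PBS and 10.36, 10.68, 10.55 and 10.72 without injection. The groups did not overlap, and the difference was 0.51 (0.23 to 0.78), 1.42-fold (limma adjusted p = 0.0063). Tlr3 measured 7.90, 7.98, 7.92 and 8.05 after PBS, all above the wild-type arrays given earlier, a difference of 0.39 (0.21 to 0.56; adjusted p = 0.00204). Tlr1 measured 8.87, 9.32, 8.98 and 9.04, of which the lowest just cleared the highest wild-type array, for a difference of 0.35 (0.15 to 0.55; adjusted p = 0.00893). Tlr1 lost its call without wild-type array 2 (0.25, adjusted p = 0.0591) and on these groups alone (adjusted p = 0.0559).

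Tlr7 (probe set 10607870, chrX:167303380-167330574) measured 11.07, 11.07, 11.12 and 11.13 after PBS against 10.60, 10.81, 10.90 and 10.83 without injection. The PBS arrays were tightly grouped and lay above the others, with a difference of 0.31 (0.20 to 0.43; limma adjusted p = 0.000207). Tlr4 (probe set 10505517, chr4:66827551-66846581) measured 9.05, 8.96, 8.80 and 8.95 against 8.43, 8.59, 8.79 and 8.77. The groups only just separated, the difference was 0.30 (0.13 to 0.47; adjusted p = 0.00915), and without wild-type array 1 it was 0.22 (adjusted p = 0.0562). Tlr8 measured 11.20, 11.09, 11.31 and 11.22 after PBS, overlapping wild-type array 3, with a difference of 0.27 (0.13 to 0.41; adjusted p = 0.00523) that lost its call on these groups alone (adjusted p = 0.0504). Tlr2 (-0.12, adjusted p = 0.261), Tlr6 (0.00, 0.984) and Tlr9 (-0.03, 0.883) did not pass. In the same comparison 4 of 4 T cell genes tested and 5 of 8 mesothelial and fibroblast genes were lower, with means of 6.50 to 6.62 against 6.77 to 6.93 and of 6.66 to 6.73 against 6.78 to 6.92. Of the 17 B cell genes 1 was higher and 1 lower. With the B cell covariate the same 6 receptors were called. The part of the T cell and of the mesothelial and fibroblast genes was not tested.

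After LPS, Tlr7 was lower than after PBS and no other receptor passed the test. That is 0 of 9 higher and 1 of 9 lower, beside 4.36% higher and 5.52% lower among all genes. An unadjusted limma p under 0.05 was found for 4 of the 9 receptors, beside 4453 of the 13512 genes tested. Called genes were 44.1% higher, or 24.3% with arrays centred on their median. Tlr7 measured 10.90, 10.87, 10.90 and 10.95 after LPS, all below the PBS arrays, a difference of -0.19 (-0.30 to -0.08), or 1.14-fold lower (limma adjusted p = 0.0324). The call was lost without PBS array 3 (adjusted p = 0.0797), PBS array 4 (0.0743), LPS array 1 (0.0627) or LPS array 2 (0.123), with a second quantile normalisation (-0.15, 0.0637) and with the interferon covariate (-0.15, 0.246). With that covariate 0 of all genes tested were called after LPS.

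Tlr4, the receptor of LPS itself, measured 8.83, 8.55, 8.75 and 8.94 after LPS. These overlapped the PBS arrays, and the difference of -0.17 (-0.35 to -0.00) did not pass (adjusted p = 0.146). Tlr13 measured 10.62, 10.56, 10.57 and 11.20, where LPS array 4 stood apart. Its difference was -0.35 (adjusted p = 0.0827) and, without that array, -0.50 (adjusted p = 0.0152). Tlr8 (-0.15, 0.131), Tlr1 (-0.11, 0.422), Tlr2 (0.08, 0.53), Tlr3 (-0.03, 0.801), Tlr6 (-0.05, 0.688) and Tlr9 (0.20, 0.281) did not pass. Of the 27 interferon-response genes 25 were higher after LPS, with a mean of 9.25 to 9.83 against 8.47 to 8.99. Of the 17 B cell genes 1 was higher and 0 lower. Of 8 mesothelial and fibroblast genes 2 were higher (mean 6.74 to 7.11 against 6.66 to 6.73), of 2 mast cell genes 1 was higher (6.89 to 7.19 against 6.72 to 6.80), and of 4 T cell genes 0 were called (6.65 to 6.77 against 6.50 to 6.62). Their part in the receptor differences was not tested beyond the B cell and interferon covariates. The interferon mean did not overlap between LPS and PBS. With the B cell covariate Tlr9 (0.23, 0.0366) and Tlr13 (-0.37, 0.0438) passed after LPS.

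After PGN and after imiquimod no receptor passed the limma test. Among all genes 2.09% were higher and 1.81% lower after PGN, and 3.09% higher and 2.6% lower after imiquimod. Of the genes called after imiquimod 54.4% were higher, or 42.5% with a second quantile normalisation. In each comparison 1 receptor, Tlr1, had an unadjusted limma p under 0.05. Among the 13512 genes tested, 2419 had such a p after PGN and 2826 after imiquimod. The Tlr1 difference was 0.23 (0.03 to 0.43, adjusted p = 0.198) after PGN. After imiquimod it was 0.22 (0.02 to 0.41, adjusted p = 0.197). Tlr7, the receptor of imiquimod, measured 11.06, 11.21, 11.18 and 11.13 after that ligand. The arrays overlapped those of PBS, and the difference was 0.05 (-0.07 to 0.16; adjusted p = 0.686). Tlr2 measured 10.92, 11.15, 10.83 and 10.97 after PGN against 11.11, 11.00, 10.98 and 10.93 after PBS, which overlapped, with a difference of -0.04 (-0.22 to 0.13; adjusted p = 0.846).

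β-glucan was followed by lower signal of 3 endosomal receptors, Tlr8, Tlr3 and Tlr7, and the other 6 receptors did not pass. That is 0 of 9 higher and 3 of 9 lower, beside 20.2% higher and 21.4% lower among all genes, with a median of -0.17 for the receptors and 0.02 for all genes. The ligand comparisons all share the PBS arrays, which were themselves higher than uninjected wild type in Tlr3, Tlr7 and Tlr8. Means after β-glucan and in wild type were 7.53 and 7.58 for Tlr3 and 10.85 and 10.78 for Tlr7. For Tlr8 they were 10.51 and 10.94. β-glucan against wild type was not tested.

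Tlr8 measured 10.67, 10.42, 10.53 and 10.43 after β-glucan against 11.20, 11.09, 11.31 and 11.22 after PBS. The groups were far apart, and the difference was -0.69 (-0.83 to -0.55), 1.62-fold lower (limma adjusted p = 1.66e-08). Tlr3 measured 7.46, 7.61, 7.55 and 7.49 against 7.90, 7.98, 7.92 and 8.05, again without overlap, and was 1.35-fold lower (-0.44, -0.62 to -0.26; adjusted p = 0.000247). Tlr7 measured 10.96, 10.74, 10.85 and 10.83, below all PBS arrays, and was 1.19-fold lower (-0.25, -0.37 to -0.14; adjusted p = 0.000607). No array left out and no alternative run ended any of these 3 calls.

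Tlr9, also endosomal, differed by -0.11 (adjusted p = 0.529) and Tlr13 by -0.14 (0.423). At the surface Tlr6 (probe set 10530151) measured 8.52, 8.38, 8.56 and 8.45 against 8.70, 8.82, 8.56 and 8.57. The highest β-glucan array lay just under the lowest PBS array, but the difference of -0.19 did not pass (adjusted p = 0.0677). Tlr2 (-0.17, 0.105), Tlr4 (0.12, 0.237) and Tlr1 (0.16, 0.188) did not pass either, although Tlr1 did without PBS array 2 (0.25, 0.0444) and with the B cell covariate (0.29, 0.0245). Tlr2 passed with the interferon covariate (-0.36, adjusted p = 0.000587) and on these groups alone (0.0483), and Tlr6 on these groups alone (0.0379) and with a second quantile normalisation (-0.18, 0.0407). With the B cell covariate Tlr9 (0.21, 0.0407) and Tlr13 (-0.34, 0.048) passed. Clec7a, which encodes the β-glucan receptor dectin-1, measured 10.32, 10.20, 10.17 and 10.21 after β-glucan and 10.56, 10.41, 10.59 and 10.53 after PBS, without overlap. It was 1.23-fold lower (-0.30, -0.48 to -0.12; limma adjusted p = 0.00828), a call lost with the interferon covariate (-0.17, 0.16).

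Of the B cell genes 7 of 17 were lower and 1 higher after β-glucan, with a mean of 7.91 to 8.03 against 8.13 to 8.50. Of the large peritoneal macrophage genes 11 of 21 were lower and 1 higher (10.64 to 10.79 against 11.01 to 11.37), and 18 of 27 interferon-response genes were higher (9.11 to 9.60 against 8.47 to 8.99). The part of the macrophage genes in the receptor differences was not tested. The B cell and interferon means did not overlap between these groups, so values with these covariates also extend beyond shared levels.

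**Figure D3:**
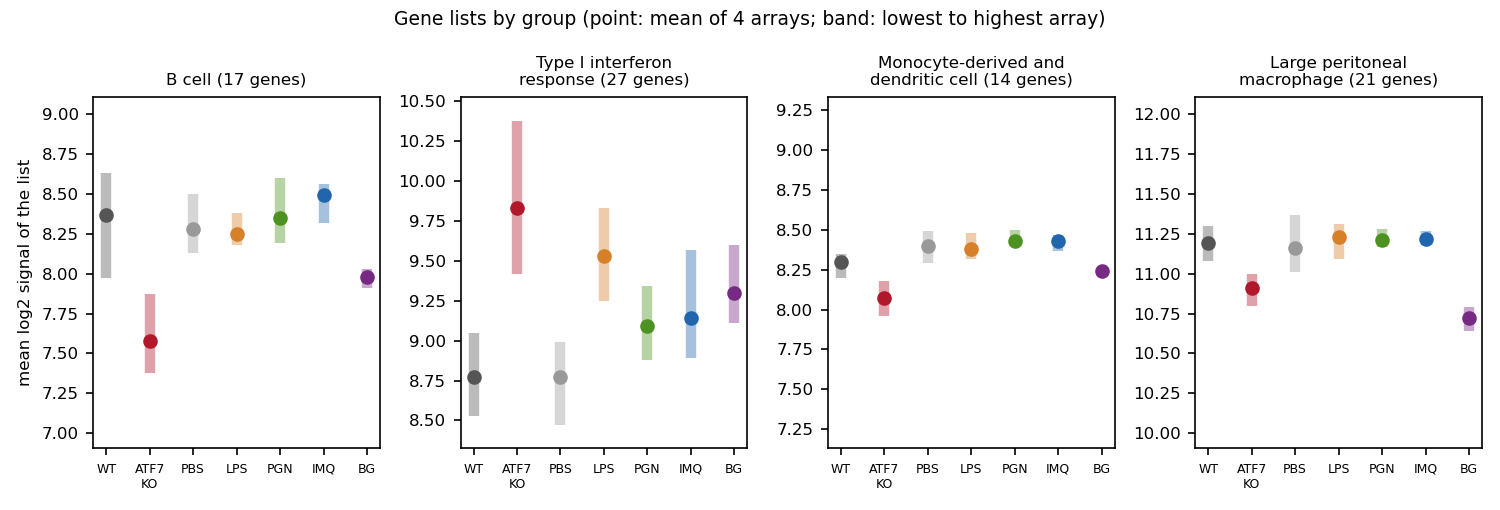
Mean log2 signal of 4 gene lists (vertical axis) in the 7 groups, with the mean of 4 arrays as a point and a band from the lowest to the highest array. The B cell list was lowest in the knockout (7.38 to 7.87), where the interferon-response list was highest (9.42 to 10.38), and the large peritoneal macrophage list was lowest after β-glucan (10.64 to 10.79).

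Set directly against each other, the 4 ligands gave 17 calls of 54 possible over the 6 pairs and 9 receptors. Called genes among all tested were 12.1% for LPS against PGN, 19.2% for LPS against imiquimod, 34.9% for LPS against β-glucan, 31.8% for β-glucan against PGN and 36.7% for β-glucan against imiquimod. PGN and imiquimod differed in 0 genes (0%) by limma, with 669 genes and 0 receptors at an unadjusted p under 0.05. The interval for Tlr7 between them was -0.13 to 0.10, and for Tlr13 it was -0.17 to 0.39.

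Tlr8 separated β-glucan from all 3 other ligands: its signal after β-glucan differed by -0.74 from PGN (limma adjusted p = 9.08e-09) and by -0.76 from imiquimod (3.82e-09), and it was higher after LPS than after β-glucan by 0.54 (9.45e-07). Tlr3 followed the same course, with -0.43 against PGN (0.000343), -0.50 against imiquimod (5.81e-05) and 0.40 for LPS over β-glucan (0.000653). No array left out ended these 6 calls. Tlr7 was lower after β-glucan than after PGN (-0.29, 0.000218) or imiquimod (-0.30, 0.000106), and it was lower after LPS than after PGN (-0.22, 0.00914) or imiquimod (-0.24, 0.00437). Between LPS and β-glucan the difference in Tlr7 did not pass (0.06, interval -0.05 to 0.17).

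Tlr1 was lower after LPS than after each other ligand, with differences of -0.34 from PGN (limma adjusted p = 0.0223), -0.33 from imiquimod (0.0204) and -0.27 from β-glucan (0.0308). Each of these calls was lost without LPS array 1 (adjusted p = 0.0805, 0.0724 and 0.112) and without LPS array 2 (0.0655, 0.0605 and 0.0636). They were also lost without PGN array 2 or 3 (0.0709 and 0.0622), imiquimod array 1 or 3 (0.0628 and 0.0643) and β-glucan array 1 or 3 (0.0818 and 0.0787), each in its own pair. Tlr4 was lower after LPS than after imiquimod (-0.26, 0.031) and β-glucan (-0.30, 0.00635). Only the first of these was lost, without LPS array 2 (0.16) or 3 (0.0509) or imiquimod array 1 (0.0617) or 3 (0.106). Tlr2 was higher after LPS than after β-glucan (0.25, 0.0231), a call lost without LPS array 1 (0.0862) or 3 (0.0675) or β-glucan array 3 (0.106). Tlr8 was lower after LPS than after imiquimod (-0.22, 0.0276), a call lost without LPS array 1, 2 or 3 (0.0559, 0.0934 and 0.051) or imiquimod array 2 or 3 (0.0594 and 0.0861). The B cell covariate ended the calls of Tlr1 (0.106) and Tlr4 (0.0584) against imiquimod and of Tlr2 (0.072), and a second quantile normalisation those of Tlr4 (0.0503) and Tlr8 (0.12) against imiquimod, where the interferon covariate also ended that of Tlr8 (0.134).

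**Figure D4:**
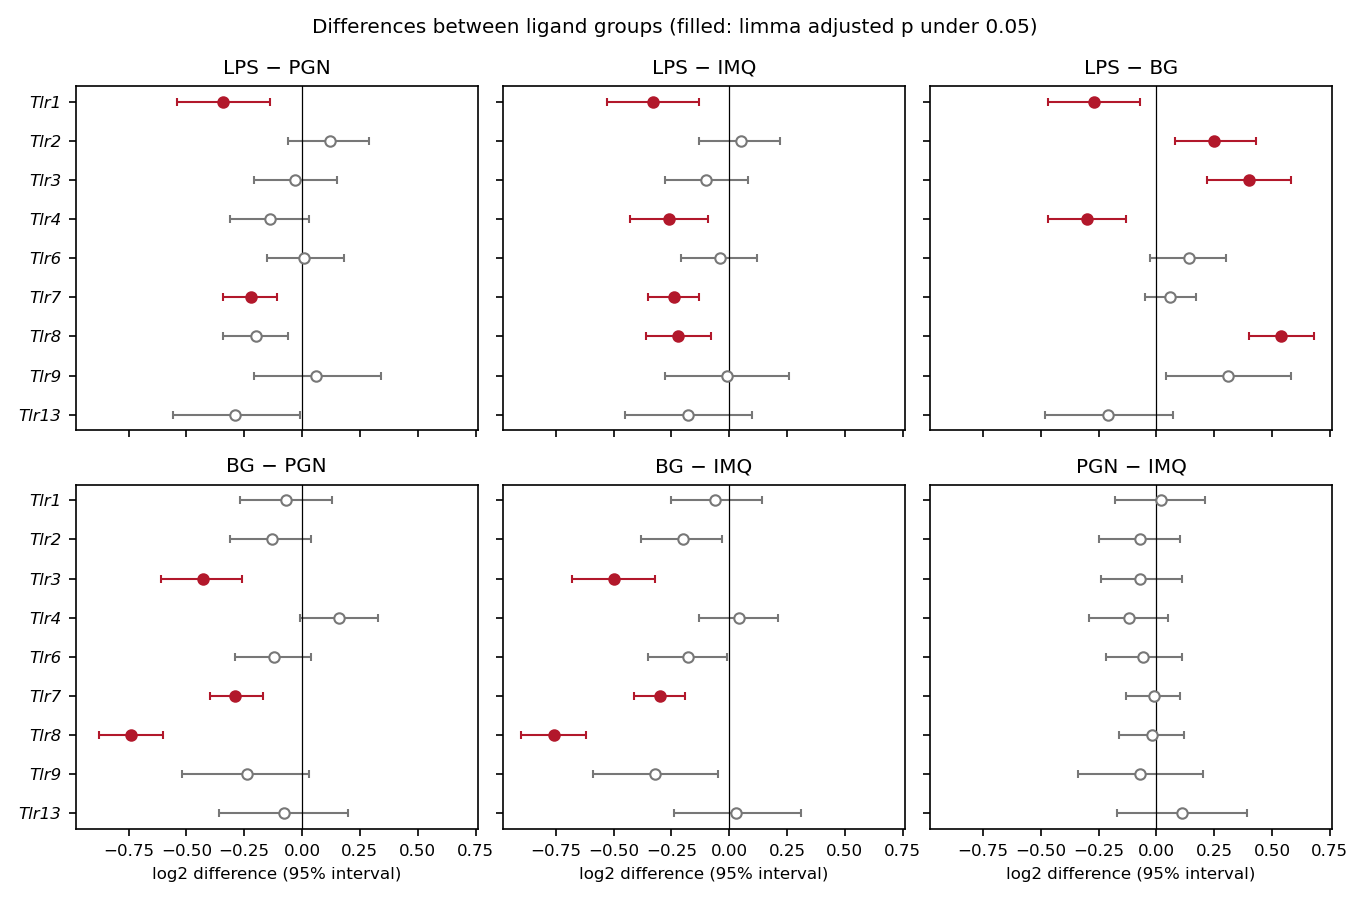
Log2 difference of each receptor between each pair of ligands, with its 95% interval; filled points passed a limma adjusted p under 0.05. Tlr8 and Tlr3 lay below 0 for β-glucan against PGN and imiquimod and above 0 for LPS against β-glucan, and no point was filled for PGN against imiquimod.

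The knockout effect was compared with the LPS effect and with the β-glucan effect by the difference between them, each measured against its own control. Tlr1 differed in both, by 1.03 against LPS (0.75 to 1.31; limma adjusted p = 9.6e-06) and by 0.76 against β-glucan (0.48 to 1.04; adjusted p = 0.000178). Tlr3 differed by 0.62 (0.37 to 0.87; adjusted p = 0.000723) and 1.02 (0.77 to 1.27; adjusted p = 1.22e-06). Tlr3 was thus higher in the knockout than in uninjected wild type and lower after β-glucan than after PBS. This contrast between the effects itself passed the test. The controls themselves differed in Tlr3, at 7.96 after PBS and 7.58 in wild type, and the β-glucan mean was 7.53. Tlr8 differed by 0.46 between the knockout and β-glucan (adjusted p = 0.000817), with the larger fall after β-glucan. Tlr13 differed by 0.57 between the knockout and LPS (adjusted p = 0.0263), a call lost without wild-type array 1 (0.0646), knockout array 1 or 2 (0.0601 and 0.0691), PBS array 3 or 4 (0.0624 and 0.0582) or LPS array 1 or 2 (0.0512 and 0.0626). It was also lost with a second quantile normalisation (0.0511), on these groups alone (0.0783) and with the B cell covariate (0.07, adjusted p = 0.851). In all, 3 of 9 receptors passed in each test, beside 29.3% of all genes for LPS and 29.1% for β-glucan.

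The other genes of the pathway were taken from 4 lists of 70 genes, of which 60 were tested. In the knockout 22 were higher and 5 lower, after LPS 3 and 2, after PGN 3 and 2, after imiquimod 3 and 1, after β-glucan 10 and 12, and in PBS against wild type 13 and 3. The shares of all genes given above for each comparison are the background for these counts. The LPS calls named below stand among 1335 genes called after LPS, a count that was 0 with the interferon covariate and 4 without LPS array 2. A call lost with the interferon covariate therefore does not set a gene apart. The count was 172 without PBS array 3, 440 without PBS array 4, 596 without LPS array 1 and 849 without PBS array 2.

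Co-receptors and chaperones, which present ligands to TLRs or carry the receptors to their compartments, had 17 of 18 genes tested. After β-glucan 7 were lower and 0 higher. Cnpy3, a chaperone that helps TLRs leave the endoplasmic reticulum, was 9.88 ± 0.0478 (SD, n = 4 here and below) after β-glucan and 10.34 ± 0.0499 after PBS, 1.37-fold lower (limma adjusted p = 2.01e-09). Ly96, which encodes the TLR4 partner MD-2, was 1.42-fold lower (11.00 ± 0.0753 against 11.51 ± 0.0888, adjusted p = 1.16e-06). Lbp, the LPS-binding protein, and Ly86, the partner of CD180, were 1.62-fold (adjusted p = 0.0016) and 1.25-fold (7.6e-06) lower. In the knockout 7 were higher and 2 lower, among them Cd36, a scavenger receptor that assists TLR2 (1.24-fold higher, 0.000588), and Rftn1, a lipid raft protein (1.31-fold lower, 0.000369). Cd180, a TLR-like receptor of LPS responses, was higher in the knockout (1.18-fold, 0.000434), after PGN (1.18-fold, 0.00451), after imiquimod (1.13-fold, 0.0306) and in PBS against wild type (1.27-fold, 1.6e-05). After LPS 0 were higher and 1, Ctsb, a lysosomal protease, was lower (1.08-fold, 0.0319), a call lost with the interferon covariate.

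Adaptors and kinases, which carry the signal from the receptor, had 17 of 22 genes tested. In the knockout 6 were higher and 1 lower. Irak2, a member of the MyD88 complex, was 10.12 ± 0.0753 against 9.50 ± 0.111, 1.53-fold higher (limma adjusted p = 6.24e-09), and Tbk1, the kinase upstream of IRF3, was 1.24-fold higher (0.000222). After LPS 0 of the 17 were called by limma. An unadjusted p under 0.05 was found for 2 of them, beside 4453 of the 13512 genes tested. Tirap, the adaptor that brings MyD88 to TLR2 and TLR4, was lower after PGN (1.19-fold, 0.00285), imiquimod (1.18-fold, 0.00301) and β-glucan (1.29-fold, 1.57e-06). In PBS against wild type 3 were higher and 1 lower, with Ticam1, which encodes the adaptor TRIF of TLR3 and TLR4, 1.22-fold higher (0.00115).

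Transcription factors had 12 of 13 genes tested, and 5 were higher and 1 lower in the knockout. Irf7, the interferon regulatory factor downstream of TLR7 and TLR9, was 10.73 ± 0.511 against 9.52 ± 0.285, 2.31-fold higher in the knockout (limma adjusted p = 2.67e-05). It was also 1.86-fold higher after LPS (0.014) and 1.55-fold higher after β-glucan (0.00979). Irf7 is also a member of the interferon-response list. Irf1 was 1.37-fold higher in the knockout (0.00805) and 1.43-fold higher after LPS (0.0211), where these were the 2 factors called. Both LPS calls were lost with the interferon covariate, as were those of all genes, and Irf7 is itself part of that covariate. Rel, a subunit of NF-κB, was 1.29-fold lower after β-glucan (1.81e-07), where 3 factors were higher and 2 lower.

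Negative regulators had 14 of 17 genes tested. In the knockout 4 were higher and 1 lower, among them Tnfaip3, which encodes the ubiquitin-editing enzyme A20 (1.31-fold, limma adjusted p = 0.00127), and Nfkbia, the inhibitor of NF-κB (1.28-fold, 0.00647). After LPS Socs1, a suppressor of cytokine signalling, was 1.19-fold higher (0.0301) and Lilrb4a, an inhibitory receptor, 1.21-fold lower (0.0137), and neither passed with the interferon covariate. After β-glucan 4 were higher, among them Tollip, a TLR-interacting protein (1.2-fold, 2.62e-05), and 2 lower.

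Tlr9 is a gene that B cells as well as macrophages express, and across the 28 arrays its level followed the B cell markers. The Pearson correlation with the mean of the 17 B cell genes was 0.82, and 0.88 after group means were subtracted. The arrays share their groups and their normalisation, and these values are a description. Wild-type array 2 held the lowest Tlr9 of its group (7.98 against 8.81, 8.47 and 8.52). With that mean as a covariate, the Tlr9 difference in the knockout changed from -0.28 to 0.55 (limma adjusted p = 0.00507). With the interferon covariate it was -0.64 (adjusted p = 0.0311), so the covariates gave called differences of opposite sign. Neither covariate overlapped between knockout and wild type, which limits what these adjusted values can show.

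Genes whose levels were most like those of each receptor called in the knockout, in a ligand against PBS or in PBS against wild type were found over the 28 arrays by Pearson correlation, which groups as well as single samples shape. For Tlr1 they were Stip1 (0.91), Hsd17b12 (0.88) and Aida (0.88), and for Tlr3 Cpt1a (0.88), Psmb3 (0.86) and Il13ra1 (0.85). For Tlr4 they were Dr1 (0.87), Actr6 (0.86) and Tmem126b (0.85), and for Tlr13 Snx24 (0.93), Daglb (0.91) and Sgcb (0.89). Tlr7 was most like Arhgef6 (0.94), Rc3h1 (0.93) and Slc16a7 (0.93), and Tlr8 most like Bmpr2 (0.96), Zdhhc9 (0.95) and Dym (0.95). Once group means were subtracted the leading genes were Atp5pb for Tlr1 (0.81), Sp100 for Tlr3 (0.82), Mettl5 for Tlr4 (0.82), Slmap for Tlr7 (0.77), Xpr1 for Tlr8 (0.82) and Coro1c for Tlr13 (0.94). Daglb for Tlr13 and Slc16a7 for Tlr7 were the genes in the leading 3 by both measures.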

How the data were processed

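Messenger RNA was measured on 28 arrays in 7 groups of 4, grouped by the labels. The deposited values are 1 linear intensity per probe set and array, made with RMA in Affymetrix Expression Console per the submitters' processing notes, with the software version not given in the sources used here. RMA corrects background, normalises arrays to a shared distribution and summarises probes, so a shift common to all genes would not be seen. The log2 of the deposited intensities was taken here with no further normalisation. Symbols came from the platform table, where 21789 probe sets had 1 symbol, 1621 several and 12146 none, and 21698 matched RefSeq by Entrez identifier with 0 renamed. Whether probes of neighbouring, related receptors share signal was not tested.

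The floor was the 95th percentile of 1210 odorant and vomeronasal receptor probe sets, and probe sets above it on at least 4 arrays were kept (14800, 13512 genes). limma 3.58.1 in R 4.3.3 fitted 1 mean per group over all 28 arrays with an intensity trend, adjusted by Benjamini-Hochberg within each comparison over all genes, and called an adjusted p under 0.05. The procedure was tested on simulated data. Figures used matplotlib 3.10.9 in Python 3.11.15. Alternatives changed the filter, normalisation, samples fitted, variance moderation, probe sets, covariates, replicate block and arrays included.

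Genes named are all members, Tlr12, Clec7a, up to 4 called genes per pathway list and comparison by p, leading and background marker genes, and the 3 genes most like each member called in at least 1 of the 6 comparisons with PBS or wild type. Examples were picked from these. The members, lists and comparisons were chosen with earlier results of these data known. The marker lists with few genes above the filter (T cell, NK cell, mast cell, eosinophil, neutrophil) had 4, 1, 2, 2 and 3 genes tested. In the knockout 1, 0, 1, 1 and 0 of these were lower and 0 higher. The list of monocyte-derived macrophage and dendritic cell genes had 14 tested, 5 lower and 1 higher in the knockout, and 5 lower and 4 higher after β-glucan.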

Additional observations from a re-analysis of the deposited data

Results flagged for a closer look

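Of 63 sets of 4 arrays (9 receptors in 7 groups), 4 held an array farther from the others than Dixon's 95% limit allows. Chance gives about 1 in 20 such sets. Tlr8 in wild-type array 3 was 11.21, where the other wild-type arrays were 10.82 to 10.88. Tlr13 in LPS array 4 was 11.20, where the others were 10.56 to 10.62. Tlr9 in LPS array 4 was 8.49, where the others were 8.65 to 8.67. Tlr9 in β-glucan array 3 was 8.14, where the others were 8.36 to 8.38.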

How the results depend on the processing

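The receptors called after LPS numbered 1 and became 0 with a second quantile normalisation, 3 with the B cell covariate and 0 with the interferon covariate, which was chosen after seeing the data. Those after β-glucan numbered 3 and became 5 on the compared groups alone and 6 with the B cell covariate. In the tests of the knockout effect against the LPS and β-glucan effects, 3 calls became 5 with the interferon covariate and 5 with the B cell covariate, respectively. Only Tlr9 changed direction into a call, each time with the B cell covariate: 0.55 in the knockout, 0.21 after β-glucan, 0.24 for LPS against imiquimod and 0.34 for the knockout effect against the β-glucan effect.

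With 1 array left out, the receptors called ranged from 2 to 4 in the knockout, 0 to 2 after LPS, 0 to 0 after PGN and after imiquimod, 3 to 4 after β-glucan, 5 to 6 in PBS against wild type, 12 to 21 over the ligand pairs, 2 to 4 for the knockout against LPS effects and 3 to 4 for the knockout against β-glucan effects. Genes called among all tested then ranged from 2942 to 3991 (knockout, 3830 with all arrays), 4 to 1558 (LPS, 1335), 283 to 483 (PGN, 528), 400 to 758 (imiquimod, 769), 4837 to 5277 (β-glucan, 5624) and 2752 to 5306 (PBS against wild type, 4415). The lowest LPS count came without LPS array 2.

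Genes called became 2409 on the compared groups alone, 1171 with the B cell and 1203 with the interferon covariate in the knockout. After LPS they became 861 with a second quantile normalisation, 508 on the compared groups and 0 with the interferon covariate. They became 272 after PGN and 2066 in PBS against wild type on the compared groups, and 462 and 511 after imiquimod with the B cell and interferon covariates.

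Same-numbered arrays correlated at -0.35 to 0.45 in their deviations from group means, and no comparison had all 4 pairs over 0.1. For PGN against PBS the 4 pairs lay at 0.05 to 0.26, with 3 over 0.1. Differently numbered arrays were not set beside these, so whether the numbers pair the samples was not settled. With the replicate block, 3, 1, 0, 0, 3 and 6 receptors were called in the knockout, LPS, PGN, imiquimod, β-glucan and PBS comparisons, 18 over the ligand pairs, and 3 and 4 in the tests between effects. The block ended 0 of 41 called values (those of Clec7a included) and added 2: Tlr8 for LPS against PGN (-0.20) and Tlr6 for the knockout against β-glucan effects (0.29). A second probe set per receptor was not run, since each has 1.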

Other observations

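Tlr7 and Tlr8, neighbours on the X chromosome, correlated at 0.79 over the 28 arrays and at 0.57 with group means subtracted, and Tlr1 and Tlr3 at 0.61 and 0.56. Tlr3 and the mean of the 27 interferon-response genes correlated at 0.50 and 0.72 by the same measures. Tlr7 correlated with the list of monocyte-derived macrophage and dendritic cell genes at 0.82 and, with group means subtracted, at 0.35. Tlr13 correlated with the interferon-response list at -0.34 and -0.61. These arrays share groups and normalisation, and the values are a description.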
